A study of Mus musculus with 21 samples.

Results

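The genes described are 48 genes of the cell cycle and of DNA replication, followed in embryonic mouse hearts with and without depletion of CHD4. They are named in a list of cyclins, cyclin-dependent kinases (CDKs), CDK inhibitors, E2F factors, replication proteins and mitotic proteins, and were taken by symbol from the expression tables of both stages, which hold 24509 genes each. All 48 were found, and all 48 passed the filter on low values at both stages. Null hearts carried recombined Chd4 alleles (Chd4 Δflox/Δflox), and flox hearts carried the unrecombined floxed alleles (Chd4 flox/flox). All embryos were of the CD1 strain. At embryonic day (E) 9.5 there were 5 null and 5 flox libraries, each from 200 ng of RNA. At E10.5 there were 3 null and 3 flox libraries, each from 300 ng of RNA. The submitters call the replicates biological, and do not say how many hearts went into a library. The labels name no recombinase, so the cells in which Chd4 was recombined cannot be stated. CHD4 is the nucleosome-remodelling ATPase of the NuRD complex, and its binding was mapped by chromatin immunoprecipitation (ChIP) in wild-type CD1 hearts at E10.0.

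Cell division is driven by CDKs, each switched on by a cyclin partner. D-type cyclins with CDK4 and CDK6 phosphorylate the pocket proteins (RB1, p107 and p130), which frees E2F factors to turn on genes of DNA synthesis. Genes of mitosis are turned on later, largely through MuvB, MYB and FOXM1 complexes at promoters that carry a cell cycle homology region (CHR) and CCAAT letters. Cardiomyocytes of the embryonic heart still divide, and so do the primitive erythroblasts that circulate through it.

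Between 14.6 and 20 M reads fell on listed genes in an E9.5 library and between 15 and 16.1 M in an E10.5 library, of which the 48 genes took 0.787 to 0.979%. Chd4 itself had 48.8, 46.9, 45.4, 40.7 and 46.9 RPKM (reads per kilobase of gene length, scaled to library size) in E9.5 null hearts, against 91.4, 92.3, 94.6, 91.2 and 92.7 RPKM in E9.5 flox hearts. At E10.5 the difference was smaller, at 48.2, 57.4 and 52.5 RPKM in null and 67.2, 74.6 and 91.1 RPKM in flox hearts (log2 difference -0.55, SE 0.161, limma adjusted p = 0.116). The authors' deposited DESeq2 comparison for E10.5 lists Chd4 with a log2 ratio of control over null of 0.50 (adjusted p = 0.022). Cardiomyocyte genes were high in every library, so the tissue label was borne out. Red blood cell genes stood apart: 12 of 13 erythroid markers rose in the null hearts at E9.5, and their summed level was 27823 to 75131 RPKM in null against 10994 to 28037 RPKM in flox libraries, with none of the 13 at 0. At E10.5 no erythroid marker was called, and the sums were 46501 to 141977 RPKM in null against 24257 to 68063 RPKM in flox libraries. Epicardial genes were low in the E9.5 libraries null 1, flox 1 and flox 3. Liver genes were high at E10.5 in null 2, null 3 and, less so, flox 2. In whole hearts, fewer cells of a type and less RNA per cell cannot be told apart.

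CHD4 peaks lay near the starts of most of these genes in wild-type hearts. A RefSeq promoter was available for 39 of the 48 genes, and for 32 of the 39 a peak present in all 3 deposited peak lists lay within 1 kb of an annotated start. The same held for 59.9% of all genes tested at E9.5 that have such a promoter. Each list alone had a peak at 38, 36 and 33 of the 39, against 86.4%, 77.5% and 68.2% of the tested genes. The 3 lists come from 2 biological samples, so they are not independent, and no test was made. The share of genes with a peak grew with expression: it was 33.3, 53.3, 64.5, 71.8 and 76.5% in 5 equal bins of tested genes, from the lowest to the highest mean RPKM. In the same bins a shared peak lay at 1 of 1, 3 of 3, 5 of 6, 3 of 6 and 20 of 23 cell cycle genes, so the members were not above the share of all genes in every bin. The 7 genes without one were Ccne1, E2f8, Tyms, Cdc25b, Bub1, Bub1b and Mki67. For the other 9 genes, including Ccnd1, Ccnd2 and Ccna2, the strand was not known, and 8 of the 9 had a shared peak within 1 kb of either gene end, Rb1 being the exception. The share of all genes with a peak at either end was not counted. Either end gives more room for a peak than the start alone, so these 8 cannot be set against the 59.9%.

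E2F letters had their highest share among licensing genes and CHR letters among mitotic genes, while CCAAT occurred at both. No test of these differences was made. E2F letters (TTTCCCGC, TTTCGCGC, TTTGCCGC or TTTGGCGC), CHR letters (TTTGAA or TTCGAA) and CCAAT were searched on both strands from 250 bases before to 50 after each annotated start. Matches that overlapped each other were all kept. E2F letters were found for 12 of the 39 genes, against 4.69% of tested genes and 2.26% of all promoters of this length. They occurred at 6 of 8 replication licensing and clamp genes (Cdc6, Cdt1, Mcm3, Mcm5, Mcm6 and Mcm7), at 0 of 6 mitotic kinase and checkpoint genes and at 0 of 4 spindle and cytokinesis genes. The nucleotide supply genes Rrm1, Rrm2 and Tyms had neither E2F nor CHR letters (0 of 3). CHR letters were found for 17 of the 39, against 15.8% of tested genes and 19.2% of all promoters. They occurred at 5 of 6 mitotic kinase and checkpoint genes, at 4 of 4 spindle and cytokinesis genes, and at 2 of 8 licensing and clamp genes. CCAAT was found for 28 of the 39, against 42.7% of tested genes and 37.4% of all promoters. It occurred at 6 of 8 licensing, 5 of 6 mitotic kinase and 3 of 4 spindle genes. A match describes letters and is not evidence of a bound factor.

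**Figure D1:**
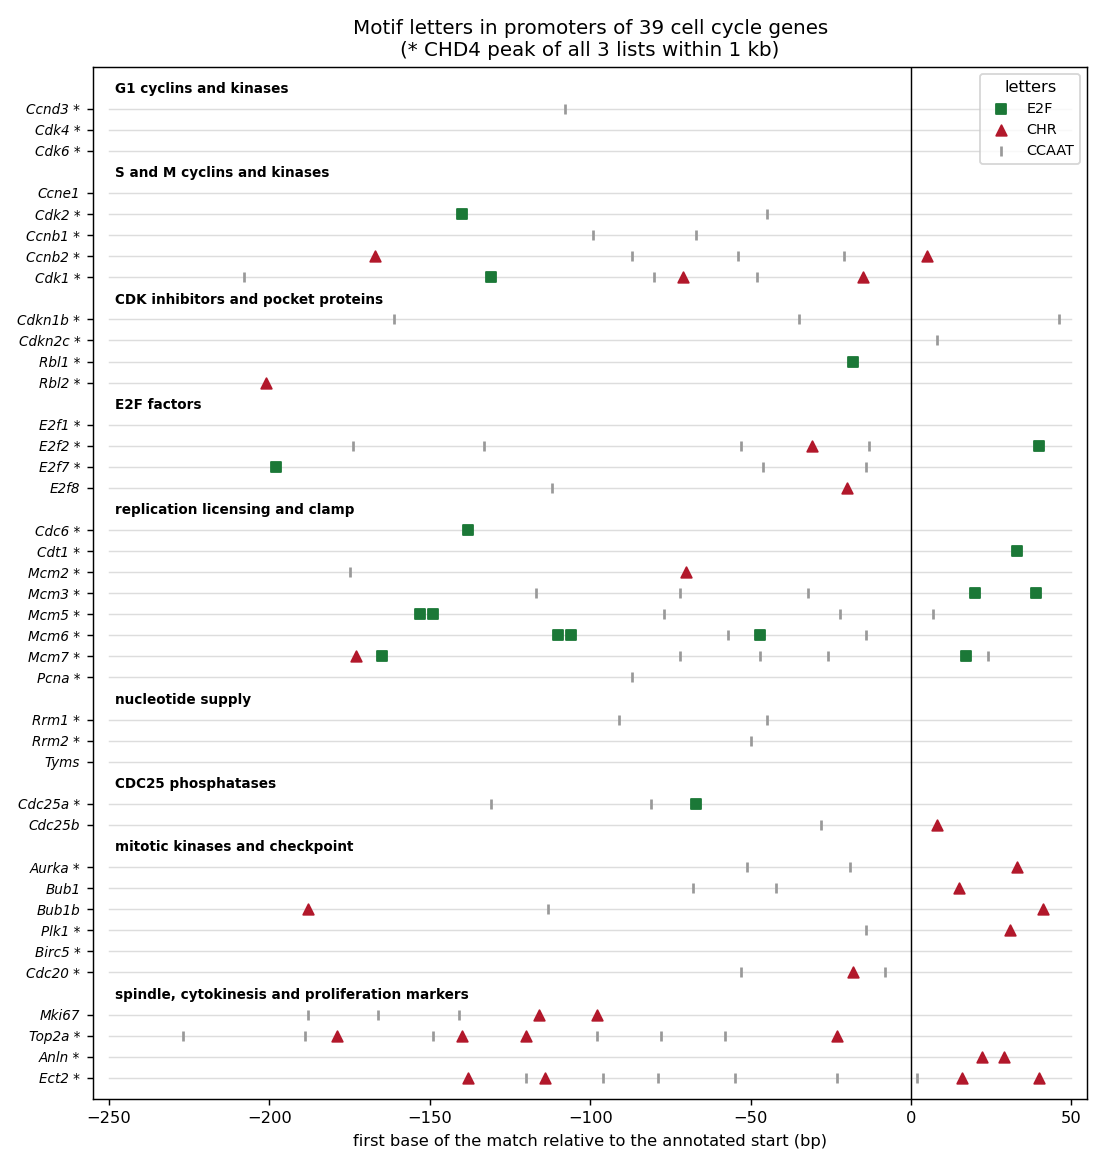
First base of each match to the E2F, CHR and CCAAT letters, in base pairs relative to the annotated start, for the 39 genes with a RefSeq promoter, grouped by role. An asterisk marks a CHD4 peak of all 3 lists within 1 kb, and genes with more than 1 annotated start have their matches drawn on 1 line. E2F squares gather in the licensing group (6 of 8 genes), and CHR triangles in the mitotic groups (5 of 6 and 4 of 4 genes).

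The following stretches run 5′ to 3′ on the strand of the gene, from 200 bases before to 30 after an annotated start, and are credited to RefSeq on GRCm38.p6, the assembly of mm10. The first 6 are those of the genes with the smallest p among members with a promoter. Rbl1 and E2f7 were added after their values were seen. Capitals mark E2F, CHR and CCAAT letters on either strand that lie wholly inside the stretch.
Top2a (chr11:99024160-99024389, minus strand): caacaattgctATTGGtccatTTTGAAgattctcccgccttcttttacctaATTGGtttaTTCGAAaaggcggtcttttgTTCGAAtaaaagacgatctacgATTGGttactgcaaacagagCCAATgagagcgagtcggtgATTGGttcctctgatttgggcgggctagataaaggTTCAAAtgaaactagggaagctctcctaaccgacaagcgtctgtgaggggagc
Mki67 (chr7:135716350-135716579, minus strand): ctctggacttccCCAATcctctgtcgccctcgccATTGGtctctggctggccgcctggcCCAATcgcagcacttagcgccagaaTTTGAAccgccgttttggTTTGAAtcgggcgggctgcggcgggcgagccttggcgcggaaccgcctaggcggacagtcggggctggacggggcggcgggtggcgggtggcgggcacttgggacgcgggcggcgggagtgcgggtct
E2f2 (chr4:136172074-136172303, plus strand): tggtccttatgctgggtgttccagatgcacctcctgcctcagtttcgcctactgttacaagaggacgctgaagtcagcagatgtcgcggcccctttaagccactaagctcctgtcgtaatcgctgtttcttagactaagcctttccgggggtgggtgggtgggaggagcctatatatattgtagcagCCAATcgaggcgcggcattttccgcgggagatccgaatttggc
Cdc25b (chr2:131186748-131186977, plus strand): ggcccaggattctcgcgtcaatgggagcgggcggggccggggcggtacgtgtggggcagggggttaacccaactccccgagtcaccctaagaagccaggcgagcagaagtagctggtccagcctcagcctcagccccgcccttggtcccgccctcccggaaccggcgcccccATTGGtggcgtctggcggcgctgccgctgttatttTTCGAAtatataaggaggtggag
Anln (chr9:22389177-22389406, minus strand): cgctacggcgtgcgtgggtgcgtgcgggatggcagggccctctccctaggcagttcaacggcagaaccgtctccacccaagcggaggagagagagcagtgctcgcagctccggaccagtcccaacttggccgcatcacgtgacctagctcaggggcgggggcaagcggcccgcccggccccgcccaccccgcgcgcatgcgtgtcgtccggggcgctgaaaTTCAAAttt
Cdk4 (chr10:127063335-127063564, plus strand): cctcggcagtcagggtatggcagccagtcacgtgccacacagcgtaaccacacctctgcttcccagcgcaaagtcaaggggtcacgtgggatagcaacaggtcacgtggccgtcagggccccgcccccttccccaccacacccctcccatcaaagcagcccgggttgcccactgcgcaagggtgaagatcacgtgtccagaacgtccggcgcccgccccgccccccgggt
Rbl1 (chr2:157204505-157204734, minus strand): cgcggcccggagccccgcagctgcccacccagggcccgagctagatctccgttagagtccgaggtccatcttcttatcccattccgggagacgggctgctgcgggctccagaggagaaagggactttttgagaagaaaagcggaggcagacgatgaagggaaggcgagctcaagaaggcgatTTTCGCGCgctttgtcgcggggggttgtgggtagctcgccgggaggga
E2f7 (chr10:110745239-110745468, plus strand): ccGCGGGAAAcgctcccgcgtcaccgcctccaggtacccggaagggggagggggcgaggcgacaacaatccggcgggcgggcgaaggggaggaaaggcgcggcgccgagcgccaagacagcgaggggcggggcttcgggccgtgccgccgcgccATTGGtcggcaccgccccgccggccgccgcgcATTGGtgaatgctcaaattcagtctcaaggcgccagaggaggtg
In Top2a the capitals are CHR letters among CCAAT letters, several of each, and in Mki67 a pair of CHR letters lies downstream of the CCAAT letters. In Rbl1 they are a single run of E2F letters just before the start, and in E2f7 a run of E2F letters far upstream with a pair of CCAAT letters near the start. In Cdk4 none of the letters searched occur.

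At E9.5, 6 of the 48 genes rose in null hearts, 2 fell and 40 did not pass the test. The 6 were E2f2, Cdc25b, Ccna2, Mki67, Top2a and Anln, and the 2 that fell were Ccnd2 and Cdk4, a D-type cyclin and its kinase. Over all 13643 genes tested, 17.2% were called, 6.87% as rises and 10.3% as falls, so the number of called cell cycle genes was near the background. The median log2 difference of the 48 was 0.03, against -0.04 over all genes tested. Among the 48, no group of replication genes had a call. Every difference is null minus flox on the log2(RPKM + 0.5) scale, and a gene was called at a limma adjusted p under 0.05 over all genes.

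**Figure D2:**
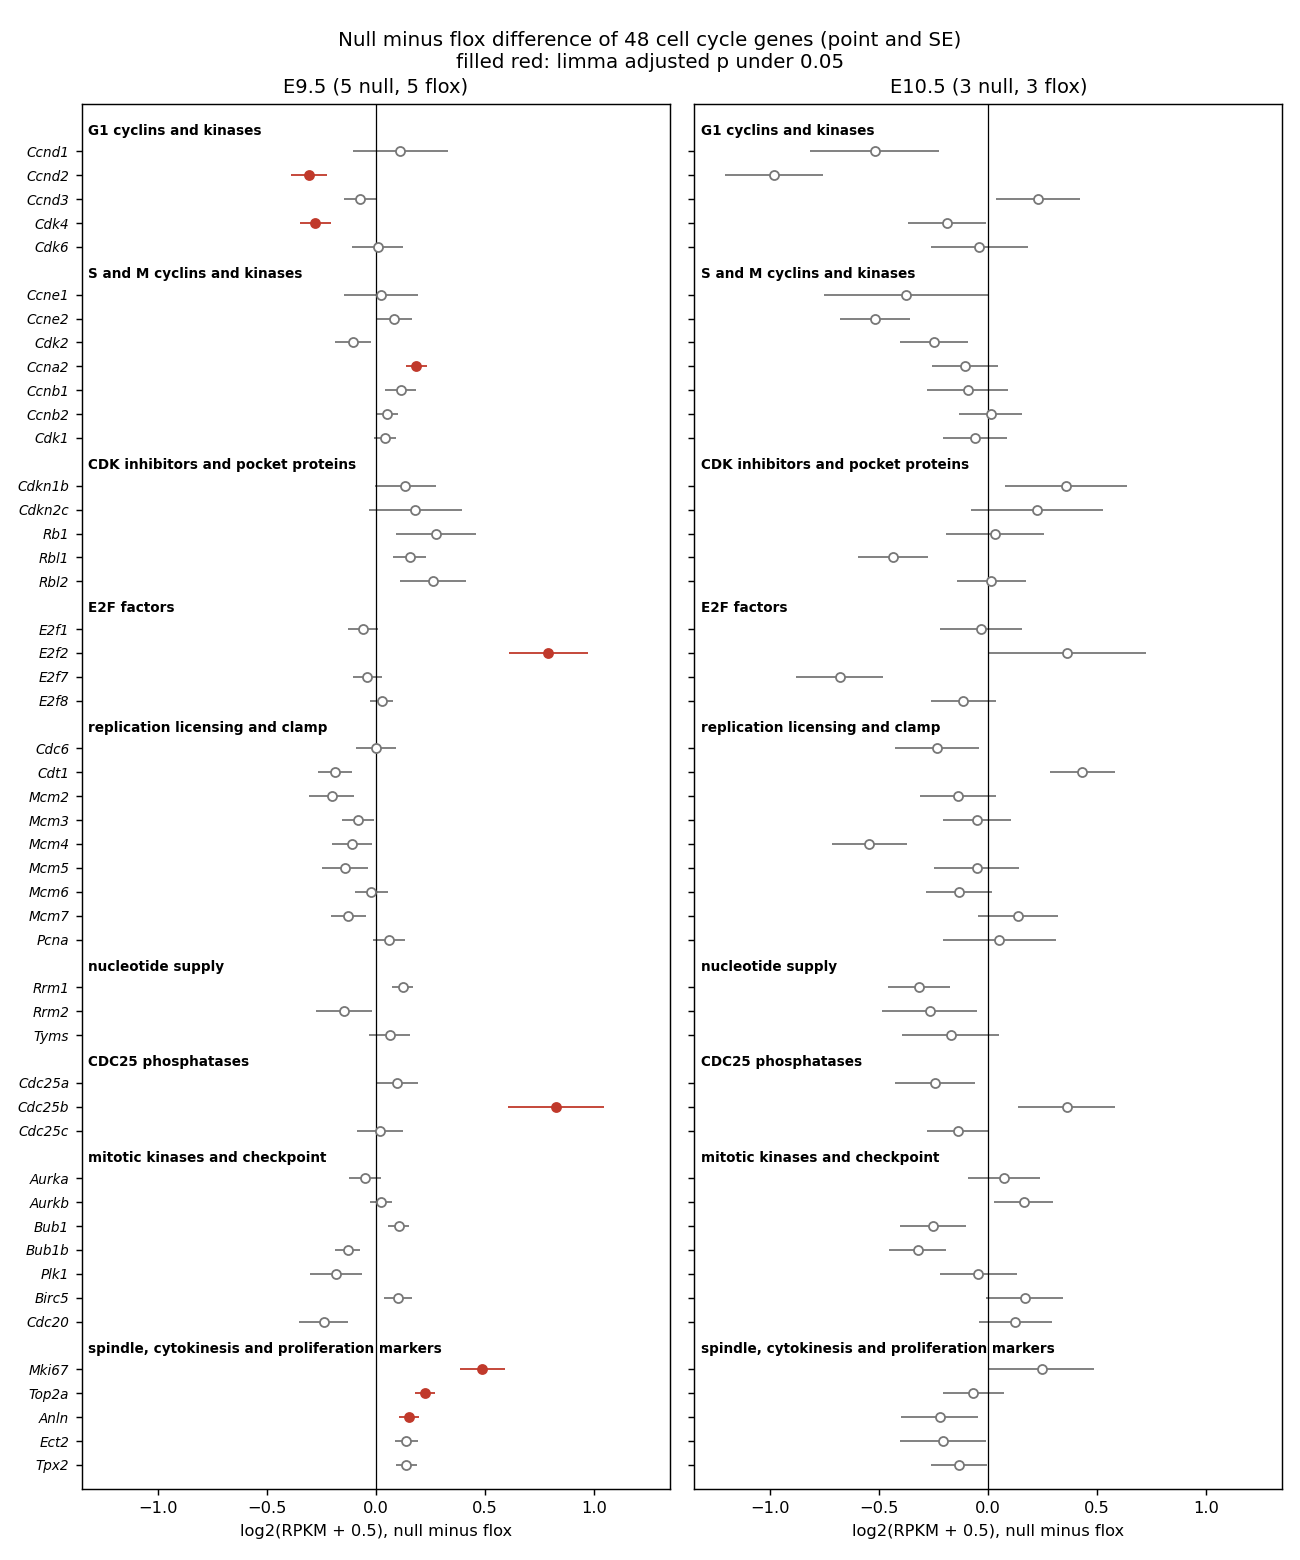
Null minus flox difference on the log2(RPKM + 0.5) scale for the 48 genes, grouped by role, at E9.5 (left, 5 null and 5 flox) and E10.5 (right, 3 null and 3 flox). Points are fitted differences, bars are 1 SE, and filled red points passed a limma adjusted p under 0.05, 8 at E9.5 and 0 at E10.5.

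Among the 5 G1 cyclins and kinases, Ccnd2 and Cdk4 fell and 3 did not pass. Ccnd2 (chromosome 6, 127125162 to 127152188), which encodes cyclin D2, had 161, 164, 177, 128 and 156 RPKM in null hearts, against 205, 194, 179, 186 and 205 RPKM in flox hearts. Every null library lay below every flox library, at 157 ± 18.04 RPKM in null and 194 ± 11.5 RPKM in flox hearts (SD, n = 5 each, log2 difference -0.31, SE 0.0824, limma adjusted p = 0.0276). Cdk4 (chromosome 10, 127063535 to 127067288), its catalytic partner and the most abundant of the 48, had 328, 297, 288, 253 and 278 RPKM in null hearts, against 359, 338, 379, 337 and 334 RPKM in flox hearts. These groups did not overlap either, at 289 ± 27.3 RPKM in null and 349.5 ± 19.5 RPKM in flox hearts (log2 difference -0.28, SE 0.0717, limma adjusted p = 0.0231). Ccnd1 ranged widely within both groups, from 40.1 to 72.8 RPKM in null and from 36.8 to 68.2 RPKM in flox libraries (log2 difference 0.11, SE 0.218). Ccnd3 and Cdk6 differed by -0.07 and 0.01. The call of Ccnd2 ended without null 5, flox 1, flox 2 or flox 5 (limma adjusted p 0.0557 to 0.0677), and that of Cdk4 without null 5, flox 1 or flox 3 (0.0555 to 0.0584). With no filter on low values, or with the epicardial level in the fit, both calls ended too (0.0632 and 0.0759 for Ccnd2, 0.0541 and 0.0554 for Cdk4).

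Of the 7 S and M phase cyclins and kinases, Ccna2 rose and 6 did not pass. Ccna2 (chromosome 3, 36564865 to 36573038), which encodes cyclin A2 of S phase and mitosis, had 106, 109.6, 116, 114 and 112 RPKM in null hearts, against 106, 98.3, 96.4, 91.8 and 97.8 RPKM in flox hearts. The rise was small, to 111 ± 3.75 RPKM in null against 98.1 ± 5.22 RPKM in flox hearts (log2 difference 0.18, SE 0.0495, limma adjusted p = 0.0272). The lowest null library lay within the flox range, and the call ended without any 1 of 6 libraries (null 3, null 5 and flox 2 to 5, adjusted p up to 0.068). The other 6, Ccne1, Ccne2, Cdk2, Ccnb1, Ccnb2 and Cdk1, differed by -0.11 to 0.11.

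E2f2 was the member of the E2F group that rose. E2f2 (chromosome 4, 136172274 to 136196057), an activating E2F factor, had 4.16, 6.86, 4.52, 9.23 and 5.40 RPKM in null hearts, against 3.06, 3.68, 3.44, 2.77 and 2.82 RPKM in flox hearts. The groups did not overlap, with means of 6.03 ± 2.07 RPKM in null and 3.16 ± 0.397 RPKM in flox hearts (log2 difference 0.79, SE 0.183, limma adjusted p = 0.0142). E2f1, another activator, and E2f7 and E2f8, atypical repressors, differed by -0.06, -0.04 and 0.03 and did not pass.

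Cdc25b was the 1 of 3 CDC25 phosphatases that rose. Cdc25b (chromosome 2, 131186436 to 131198511), which activates CDK1 at entry into mitosis, had 11.8, 21.1, 12.7, 28.5 and 15.5 RPKM in null hearts, against 7.73, 8.91, 12.3, 9.38 and 9.06 RPKM in flox hearts. Null libraries spread widely and flox 3 lay within their range, with means of 17.9 ± 6.93 RPKM in null and 9.47 ± 1.69 RPKM in flox hearts (log2 difference 0.83, SE 0.219, limma adjusted p = 0.0259). Its call ended without null 2, flox 1, flox 2 or flox 5 (adjusted p 0.0553 to 0.0645), with no filter on low values (0.0789) and with the epicardial level in the fit (0.0817). Cdc25a and Cdc25c differed by 0.10 and 0.02.

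The spindle, cytokinesis and proliferation group held 3 of the 6 rises. Mki67 (chromosome 7, 135689784 to 135716450), whose product coats mitotic chromosomes and is used as a proliferation marker, had 52.4, 63.2, 52.5, 79.3 and 63.2 RPKM in null hearts, against 41.8, 45.5, 41.6, 42.9 and 46.8 RPKM in flox hearts. All null libraries were above all flox libraries, with means of 62.1 ± 11.001 RPKM in null and 43.7 ± 2.32 RPKM in flox hearts (log2 difference 0.49, SE 0.104, limma adjusted p = 0.00975). Top2a (chromosome 11, 98992947 to 99024199), the topoisomerase that untangles chromosomes for mitosis, had 118, 118, 112, 125 and 124 RPKM in null hearts, against 106, 97.8, 104, 102 and 101 RPKM in flox hearts. Its groups were tight and did not overlap, at 119 ± 5.41 RPKM in null and 102 ± 2.96 RPKM in flox hearts (log2 difference 0.22, SE 0.0465, limma adjusted p = 0.00879). Anln (chromosome 9, 22331214 to 22389211), a scaffold of the contractile ring, had 29.99, 29.2, 30.9, 28.8 and 30.5 RPKM in null hearts, against 26.9, 27.7, 24.8, 27.5 and 27.4 RPKM in flox hearts. The difference was small and without overlap (log2 difference 0.15, SE 0.047, limma adjusted p = 0.0478), and the call held in only 1 of the 10 fits that left out a library, that without null 4 (adjusted p 0.0384 to 0.11). It also ended with the epicardial level (0.103) or a replicate block (0.0586) in the fit and by limma voom (0.0534). Tpx2, a spindle assembly factor, was also above every flox library but did not pass (log2 difference 0.14, adjusted p = 0.0652), and Ect2 differed by 0.14. In all, the groups did not overlap for 5 genes with null above and 2 with null below, against 5.5% and 8.57% of all genes tested.

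**Figure D3:**
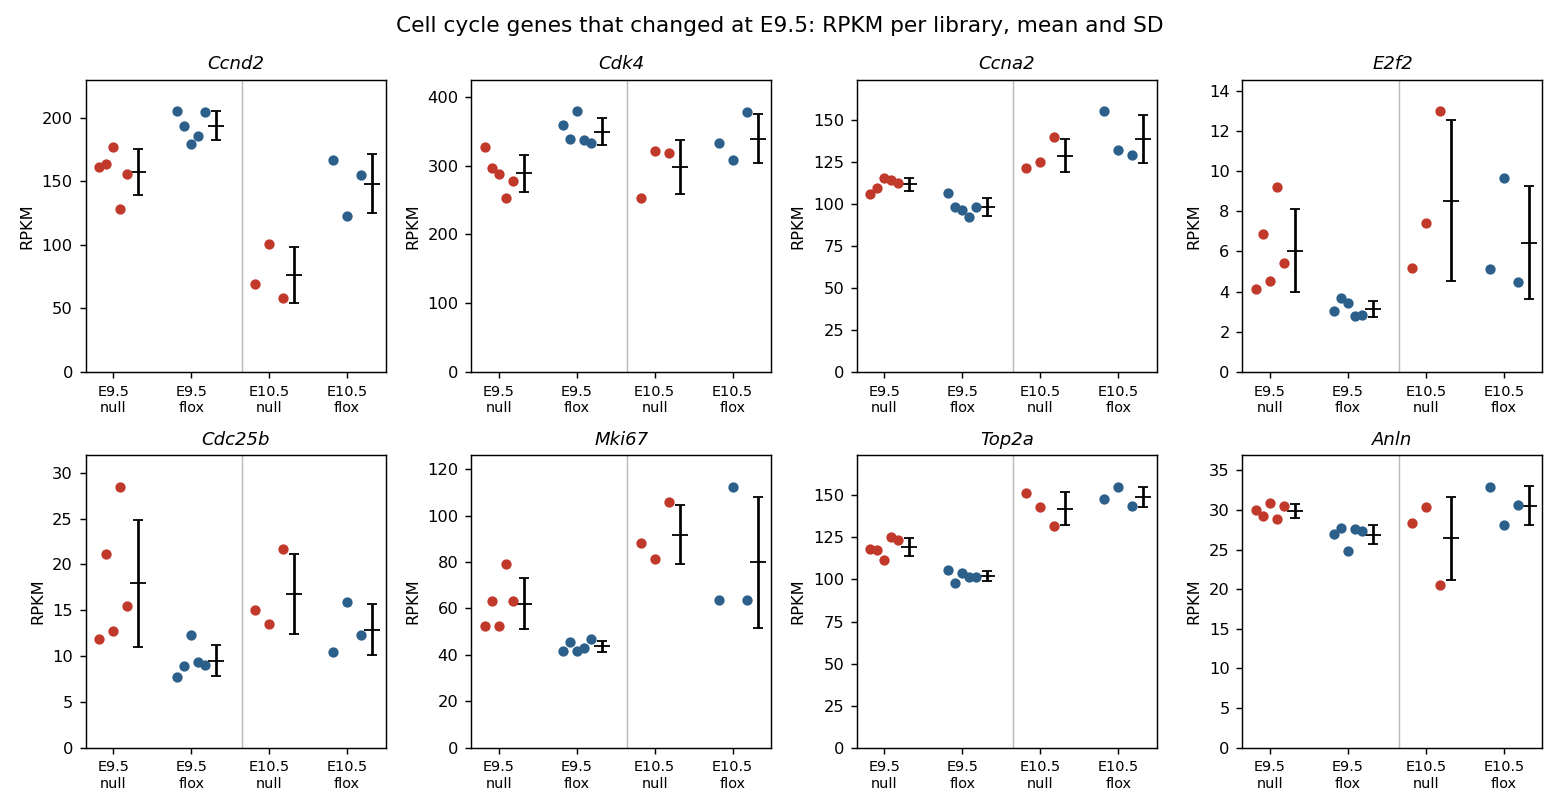
RPKM in every library of the 8 genes that changed at E9.5, null (red) left of flox (blue) at each stage, with mean and SD beside the points. Groups do not overlap at E9.5 for Ccnd2, Cdk4, E2f2, Mki67, Top2a and Anln, while at E10.5 Ccnd2 alone of the 8 has every null library (58.2 to 101 RPKM) below every flox library (123 to 167 RPKM).

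Among the 48 genes, the groups of replication licensing and clamp, nucleotide supply, CDK inhibitors and pocket proteins, and mitotic kinases had no call at E9.5. Of the 9 licensing and clamp genes 8 were slightly lower and 1 higher, with a median log2 difference of -0.11, but 6 lower and 3 higher with libraries rescaled to a common median. Mcm3, a subunit of the replicative helicase and the most abundant of that group, had 83.5, 77.2, 73.2, 63.5 and 72.6 RPKM in null hearts, against 81.5, 74.9, 83.5, 72.04 and 79.4 RPKM in flox hearts. Rrm2, the small subunit of the reductase that makes deoxynucleotides, had 90.1, 84.5, 88.9, 60.996 and 85.9 RPKM in null hearts, against 103, 90.98, 96.6, 68.7 and 94.2 RPKM in flox hearts. Null 4 and flox 4 were the lowest of their groups for both genes. Cdkn1b, which encodes the CDK inhibitor p27, had 25.2, 24.7, 23.96, 39.3 and 24.3 RPKM in null hearts, against 24.3, 24.7, 23.3, 30.5 and 20.8 RPKM in flox hearts, with null 4 and flox 4 the highest of their groups. Aurka, a kinase of spindle poles, had 63.4, 59.7, 53.97, 51.1 and 54.1 RPKM in null hearts, against 63.2, 53.5, 63.9, 54.8 and 56.98 RPKM in flox hearts, and the groups overlapped. All 5 CDK inhibitors and pocket proteins were higher in null hearts, by 0.14 to 0.27 on the log2 scale, and none passed. Over all genes, 5744 of the 13643 tested were higher. All 5 stayed higher with libraries rescaled in 2 ways, but with the erythroid level in the fit 2 were higher and 3 lower.

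The level of red blood cell genes moved with several of the called genes. Their mean log2 level was 6.47, 7.28, 6.45, 7.56 and 7.05 in null 1 to 5, against 5.50, 5.27, 6.46, 5.57 and 5.86 in flox 1 to 5. Null 4 and null 2, the highest of all 10, also had the highest E2f2 and Cdc25b, and null 4 the highest Mki67. Flox 3, the highest flox library, also had the highest Cdc25b of its group, but it had the lowest Mki67, and E2f2 was highest in flox 2, which had the lowest erythroid level. With this level as a term in the fit none of the 48 genes was called, and 74 of all genes were. The log2 difference of Cdc25b was then -0.08 (SE 0.203, limma adjusted p = 0.951), that of E2f2 0.23 (SE 0.258) and that of Mki67 0.21 (SE 0.157). Ccnd2 then stood at -0.07 (SE 0.121) and Cdk4 at -0.21 (SE 0.127). Ccna2 was at 0.19 (SE 0.0903), Top2a at 0.14 (SE 0.0778) and Anln at 0.27 (SE 0.0747). The erythroid level and the genotype differ together in these hearts, so their parts in the E9.5 differences cannot be told apart. The SE grew for 7 of the 8 genes, and Ccna2 and Anln had no smaller a difference than without the term. Cardiomyocyte genes were lower at the same time, at 12075 to 14460 RPKM in null against 15180 to 17266 RPKM in flox libraries, and 2 of 8 fell. Their part was not tested.

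Other genes of the pathway, 97 in 4 lists, had no excess of calls over the background at E9.5, and the gap to the background was not tested. Of the 95 tested, 6 rose and 6 fell (against 6.87% and 10.3% of all genes tested), with a median log2 difference of 0.02. Each list's counts are to be read against these shares, and no difference between lists was tested. Among 42 genes of origins and the replication fork, 3 fell and none rose. They were Pold2, a subunit of DNA polymerase delta (23.9 ± 1.75 RPKM in null and 37.1 ± 1.99 RPKM in flox hearts, SD, n = 5 each, log2 difference -0.62, limma adjusted p = 0.000148), its catalytic subunit Pold1 (log2 difference -0.37, limma adjusted p = 0.00691) and the nuclease gene Dna2 (log2 difference -0.40, limma adjusted p = 0.0277). Among 35 genes of kinetochores, chromosomes and mitotic exit, 3 rose and none fell. They were the condensin subunit Smc4 (78.6 ± 6.76 RPKM in null and 63.9 ± 1.77 RPKM in flox hearts, log2 difference 0.29, limma adjusted p = 0.00838), Hmmr (log2 difference 0.20, limma adjusted p = 0.0229) and the kinetochore gene Nuf2 (log2 difference 0.22, limma adjusted p = 0.0259).

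Of 14 cell cycle transcription factors 2 rose and 2 fell at E9.5, against 6.87% and 10.3% of all genes tested. The MYC family split, with Mycn at 26.2 ± 1.51 RPKM in null and 38.1 ± 2.80 RPKM in flox hearts (log2 difference -0.53, limma adjusted p = 0.000366) and Myc at 23.8 ± 4.58 RPKM in null and 15.3 ± 3.39 RPKM in flox hearts (log2 difference 0.63, limma adjusted p = 0.0232). The MuvB subunits Lin54, which binds CHR letters, and Lin37 split too, with log2 differences of 0.20 and -0.30 (limma adjusted p = 0.0315 and 0.0494). Of the other CDK inhibitors, Cdkn1c, which encodes p57, fell to 520.0 ± 92.7 RPKM in null against 716 ± 48.7 RPKM in flox hearts (log2 difference -0.48, limma adjusted p = 0.0179). Cdkn1a, which encodes p21, rose to 15.5 ± 4.93 RPKM in null against 9.39 ± 2.76 RPKM in flox hearts (log2 difference 0.69, limma adjusted p = 0.0486). With the erythroid level in the fit none of these 12 calls remained. The log2 difference then stayed close for Pold2 (-0.56, SE 0.11, limma adjusted p = 0.0662), Pold1 (-0.36, SE 0.135) and Lin54 (0.20, SE 0.102), with a larger SE, while that of Myc was -0.03 (SE 0.159) and that of Lin37 -0.11 (SE 0.156).

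At E10.5 none of the 48 genes was called by limma, where 2.07% of the 14100 genes tested were, 1.77% as rises and 0.305% as falls. At an unadjusted p under 0.05 there were 7 (Ccnd2, Ccne2, Rbl1, E2f7, Cdt1, Mcm4 and Bub1b), against 22.9% of all genes tested, and limma voom on the recovered reads also called 0. Of the 48, 32 were lower and 16 higher in null hearts, with a median log2 difference of -0.10, against -0.03 over all genes tested. Over all genes, 7565 of the 14100 tested were lower. With libraries rescaled without erythroid and the 10 most abundant genes, 29 of the 48 were lower and 19 higher. Rescaling to a common median left 32 lower and 16 higher, and with the erythroid level in the fit 37 were lower and 11 higher. No test of these counts was made. In 11 genes every null library lay below every flox library, and in 1, Cdt1, every null library lay above, against 17.4% and 13.9% of all genes tested (31.3% together). The SE of the 48 differences was 0.127 to 0.378 at E10.5 and 0.0465 to 0.219 at E9.5.

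Ccnd2 had the largest difference at E10.5. It had 69.3, 101 and 58.2 RPKM in null hearts, against 167, 123 and 155 RPKM in flox hearts. The means were 76.1 ± 22.1 RPKM in null and 148 ± 23.02 RPKM in flox hearts (SD, n = 3 each, log2 difference -0.98, SE 0.226, limma adjusted p = 0.072). Ccnd2 was listed in the authors' deposited table for E10.5 with a log2 ratio of control over null of 0.85 (adjusted p = 0.00119), and E2f7 with 0.62 (adjusted p = 0.029). They were the 2 of the 48 listed there, while the authors' deposited table for E9.5 listed 11, the 8 called here and Rrm1, Ect2 and Tpx2.

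Among the D-type cyclins at E10.5, cyclin D2 took a smaller share in every null library than in any flox library, a separation that was not tested for the share and that 31.3% of single genes show in either direction. Cyclin D2 took 39.5, 38.8 and 23.6% of their summed RPKM in null 1 to 3, against 52.8, 44.3 and 49.9% in flox 1 to 3. The summed RPKM of Ccnd1, Ccnd2 and Ccnd3 was 175, 259.6 and 246 in null, against 316, 277 and 310.1 in flox libraries. Every null library was below every flox library in both measures. Ccnd1 had 28.2, 65.001 and 61.4 RPKM in null hearts, against 72.8, 66.5 and 69.7 RPKM in flox hearts, and Ccnd3 had 77.8, 93.9 and 127 RPKM in null hearts, against 76.5, 87.6 and 85.6 RPKM in flox hearts. The log2 ratio of Ccnd3 over Ccnd2 within a library was 0.17, -0.10 and 1.11 in null hearts, against -1.12, -0.48 and -0.85 in flox hearts, a difference of 1.21 (exact permutation test, two-sided, p = 0.1, the smallest that 3 against 3 can give, adjusted p = 0.296). The ratio of Ccnd2 over Ccnd1 overlapped between the groups (exact permutation test, p = 0.4). At E9.5 the share of cyclin D2 was 45.1 to 53.8% in null and 51.7 to 59.3% in flox libraries, which overlapped.

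**Figure D4:**
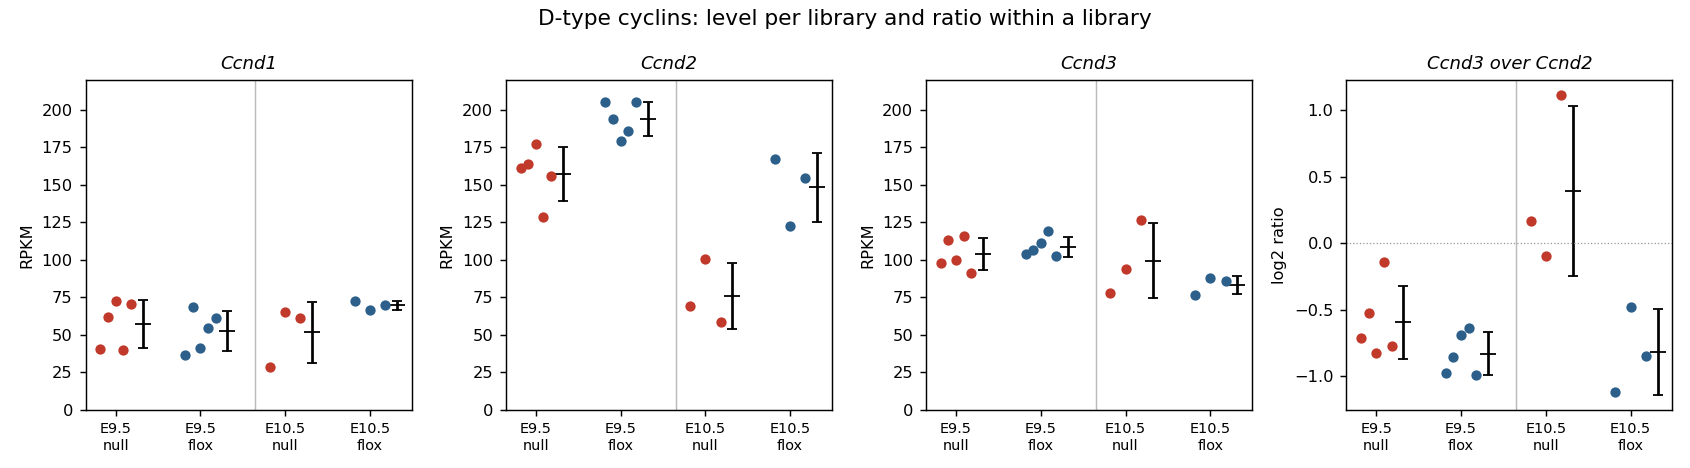
RPKM of the 3 D-type cyclins in every library and the log2 ratio of Ccnd3 over Ccnd2 within a library, null (red) left of flox (blue) at each stage, with mean and SD. Ccnd2 separates at both stages, and the ratio separates at E10.5, where null libraries lie between -0.10 and 1.11 and flox libraries between -1.12 and -0.48.

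Ratios within a library were compared for 7 pairs of related genes at both stages, 14 comparisons in all, and none had an adjusted p under 0.05. The smallest adjusted p was 0.296. The smallest p that the exact permutation test can give is 0.00794 at E9.5 and 0.1 at E10.5. No E10.5 ratio could thus pass, nor could a lone E9.5 ratio after adjustment over 14 comparisons. The lack of calls therefore says little about the ratios. Beside the cyclins, 2 pairs had every null library above every flox library at E10.5, as had 13.9% of single genes tested. In both pairs the first gene differed little at E10.5 (E2f8 by -0.11 and Rbl2 by 0.01), so the ratios largely repeat the values of E2f7 and Rbl1. For E2f8 over E2f7 the log2 ratio was 1.58, 1.09 and 1.56 in null hearts, against 1.04, 0.86 and 0.63 in flox hearts. For Rbl2 over Rbl1, the pocket proteins p130 and p107, it was -0.37, -0.80 and -0.64 in null hearts, against -1.20, -1.07 and -0.90 in flox hearts. Both had the smallest p possible (exact permutation test, p = 0.1).

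Further genes of S phase, replication and the spindle checkpoint did not overlap between the groups at E10.5. E2f7 (chromosome 10, 110745439 to 110787384), a repressor that acts in S phase, had 4.52, 7.54 and 4.93 RPKM in null hearts, against 9.07, 9.02 and 9.42 RPKM in flox hearts (log2 difference -0.68, SE 0.2, limma adjusted p = 0.115). Mcm4 (chromosome 16, 15623897 to 15637400), a helicase subunit, had 38.9, 58.1 and 43.9 RPKM in null hearts, against 67.3, 66.9 and 69.3 RPKM in flox hearts (log2 difference -0.55, SE 0.171, limma adjusted p = 0.129). Bub1b, a kinase of the spindle checkpoint, had 38.8, 41.7 and 36.02 RPKM in null hearts, against 49.03, 47.3 and 49.6 RPKM in flox hearts (log2 difference -0.32, SE 0.13, limma adjusted p = 0.193). Flox libraries lay close together for all 3 genes and null libraries spread more. The values of these 3 genes were chosen after they were seen, for an unadjusted p under 0.05. The remaining non-overlapping genes with null below were Ccnd1, Cdc6, Bub1 and Tpx2, beside those given here with their values. The genes that had risen at E9.5 overlapped between the groups at E10.5, with E2f2 at 5.19, 7.42 and 12.99 RPKM in null and 5.14, 9.67 and 4.49 RPKM in flox hearts and Mki67 at 88.2, 81.5 and 106 RPKM in null and 63.6, 112 and 63.8 RPKM in flox hearts. Null 3 and flox 2, the highest of their groups for both genes, also had the highest erythroid level of their groups, at 8.30 and 7.67 on the log2 scale. With that level in the fit the E10.5 log2 difference was -0.20 (SE 0.212) for E2f2, against 0.36 (SE 0.36) without it, and -0.09 (SE 0.185) for Mki67, against 0.24 (SE 0.239), and neither gene passed in either fit.

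In the 97 other genes of the pathway at E10.5, 96 were tested, 1 rose and none fell (against 1.77% and 0.305% of all genes tested), with a median log2 difference of -0.13. The rise was that of Cdkn1a, to 23.9 ± 9.49 RPKM in null against 8.39 ± 1.64 RPKM in flox hearts (SD, n = 3 each, log2 difference 1.41, limma adjusted p = 0.0414). This call ended with no filter on low values, with the erythroid or the epicardial level in the fit, and without any 1 of null 2, null 3 and flox 1 to 3. With the erythroid level the log2 difference of Cdkn1a was no smaller, at 1.63 (SE 0.298, limma adjusted p = 0.0631).

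The null minus flox difference itself differed between the stages for 4 of the 48 genes, against 3.82% of the 13886 genes tested (limma interaction over all 16 libraries). Ccne2, Rbl1 and Rrm1 were more negative at E10.5, as were 1.31% of all genes tested, and Cdt1 was more positive, as were 2.51%. Ccne2 (chromosome 4, 11190433 to 11204779), a cyclin E of the G1 to S transition, had 22.2, 29.5 and 27.3 RPKM in E10.5 null hearts, against 43.002, 34.8 and 35.9 RPKM in E10.5 flox hearts. At E9.5 it had 22.1, 20.2, 23.8, 21.6 and 27.2 RPKM in null hearts, against 22.2, 22.9, 21.7, 19.2 and 22.03 RPKM in flox hearts. Its difference was thus -0.52 at E10.5 and 0.08 at E9.5, and the interaction was -0.60 (SE 0.157, limma adjusted p = 0.0445). Rbl1 (chromosome 2, 157145893 to 157204534), which encodes the pocket protein p107, had 9.22, 10.5 and 8.52 RPKM in E10.5 null hearts, against 14.4, 13.3 and 11.2 RPKM in E10.5 flox hearts. At E9.5 it had 8.30, 8.31, 9.27, 7.54 and 9.41 RPKM in null hearts, against 6.86, 8.33, 7.54, 7.45 and 7.98 RPKM in flox hearts. Null libraries were below flox libraries at E10.5 and overlapped them at E9.5 (interaction -0.59, SE 0.145, adjusted p = 0.0378).

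Rrm1 (chromosome 7, 102441695 to 102469771), the large subunit of ribonucleotide reductase, had 76.4, 90.2 and 88.1 RPKM in E10.5 null hearts, against 110.4, 99.8 and 107 RPKM in E10.5 flox hearts. At E9.5 it had 78.7, 80.96, 77.8, 75.5 and 84.4 RPKM in null hearts, against 72.3, 76.5, 67.8, 73.4 and 74.9 RPKM in flox hearts. Its difference was -0.32 at E10.5 and 0.12 at E9.5 (interaction -0.44, SE 0.103, limma adjusted p = 0.0353). Cdt1 (chromosome 8, 122568015 to 122573130), which loads the MCM helicase at origins, went the other way. It had 31.7, 28.2 and 35.5 RPKM in E10.5 null hearts, against 23.3, 21.2 and 25.7 RPKM in E10.5 flox hearts. At E9.5 it had 30.3, 32.4, 29.7, 24.4 and 25.98 RPKM in null hearts, against 33.2, 32.1, 33.1, 34.03 and 30.1 RPKM in flox hearts. The difference was 0.43 at E10.5 and -0.19 at E9.5 (interaction 0.62, SE 0.143, adjusted p = 0.0331).

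**Figure D5:**
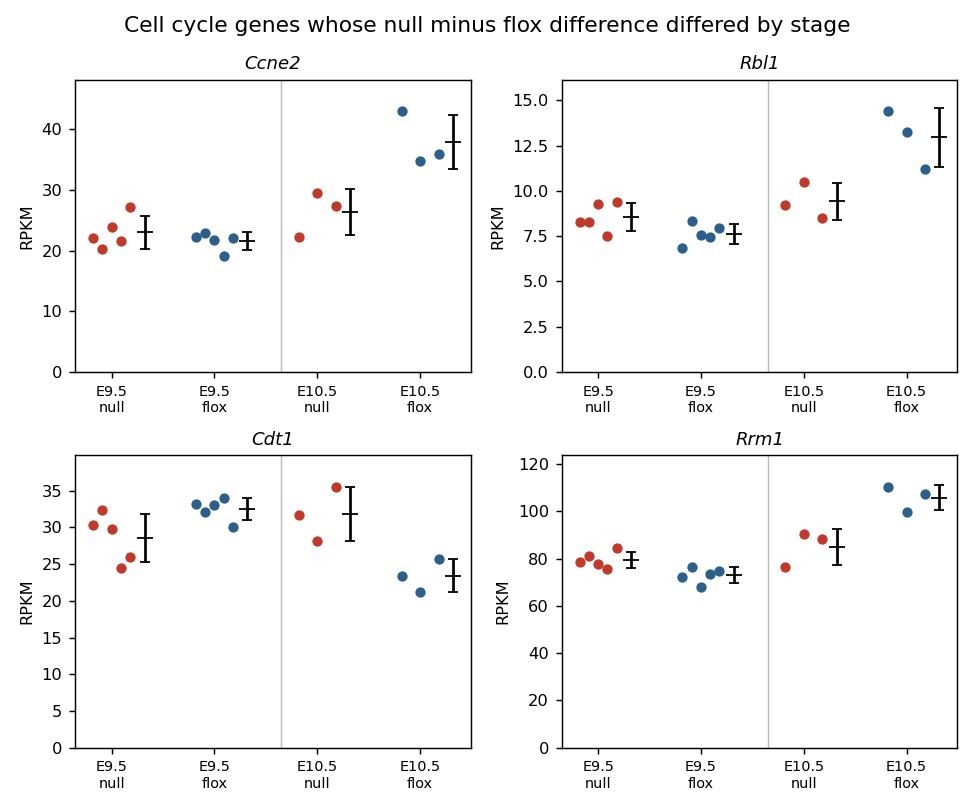
RPKM in every library of the 4 genes whose null minus flox difference differed between the stages, null (red) left of flox (blue), with mean and SD. At E10.5 null libraries lie below flox libraries for Ccne2, Rbl1 and Rrm1 and above them for Cdt1, and at E9.5 the groups overlap for all 4.

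None of the 4 genes passed at either stage alone. The interaction fit took a common variance per gene for both stages, though the SE was larger at E10.5. For all 4 genes the SE of the interaction lay below that of the E10.5 difference alone (for Rrm1, 0.103 against 0.141). Unequal variances were not modelled, so the adjusted p of these 4 calls may be too small. All 4 calls remained with the erythroid level in the fit, where Ccnd2 (-0.79, adjusted p = 0.0283), E2f7 (-0.67) and Anln (-0.45) passed as well. With the epicardial level in the fit the calls of Ccne2 and Rbl1 ended (adjusted p = 0.06 and 0.0529), and that of Ccne2 ended with no filter on low values (0.067) and with a replicate block (0.0523). All 4 ended without E9.5 null 1, flox 1 and flox 3 together (0.13 to 0.144), a choice made after the data were seen. In that fit 18 of all genes were called, against 531 in the main fit. All 4 also ended when any 1 of E10.5 flox 1, E10.5 flox 2, E9.5 null 3, E9.5 null 5 or E9.5 flox 1 to 4 was left out, with adjusted p up to 0.127 for Ccne2, 0.113 for Rbl1, 0.0983 for Rrm1 and 0.0869 for Cdt1. Calls over all genes fell in these fits too, to between 4 and 168. Stage goes together with the RNA input and the table of values, so the stages differ in more than age.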

How the data were processed

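Polyadenylated RNA of whole embryonic hearts was sequenced from stranded libraries, per the labels. The authors used MACS2, DESeq2 1.6.3, HTSeq 0.6.2, Bowtie 1.2.0, bedtools 2.25.0 and SAMtools 1.6 with mm10, per the submitters' processing notes, which state neither order nor settings nor whether the counting used strand. Expression came as RPKM deposited by the authors, scaled by the deposited gene length (another column, in bp) and by the reads of each library. The authors' deposited log2 ratios of control over null, and the p-values beside them, cover genes with an adjusted p up to 0.05. Neither the mean signal nor the score of the test that the authors deposited there was used. The score of a peak is a whole number of unstated scale, as deposited by the authors, and served to take the upper part of each list.

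The columns marked WT and KO were read as flox and null. RPKM multiplied by length was a whole number of reads (tolerance 0.01) in 100% of cases, so depth was known. Replicate libraries of a group differed by more than sampling noise, with a chi-square per degree of freedom of 9.63 to 95.4. The limma p-values set a group difference against the spread between these libraries, drawn toward a trend over all genes.

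The fits used limma 3.58.1 under R 4.3.3 (two-sided, eBayes with trend) on log2(RPKM + 0.5), a scale that understates changes of low genes. A gene was tested where its mean over the libraries of a stage reached 0.5 RPKM. Each stage was fitted alone, and a call needed an adjusted p under 0.05 (Benjamini-Hochberg over all genes tested). The stage difference was an interaction over all 16 libraries, with a common variance per gene for both stages. Ratios of related genes used an exact permutation test. The scripts were tested on simulated data. Promoters and gene positions are RefSeq's on GRCm38.p6. A peak was shared where lists overlapped by at least 1 bp. Python 3.11.15, pandas 2.3.3, numpy 2.4.6 and matplotlib 3.10.9 made the peak counts and figures. The 2 input libraries of the ChIP were not used here.

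The 48 members, their groups by role, the 97 other genes and the marker lists were chosen with earlier results of these data known. Values in every library are given for members called at a stage or in the stage difference, and for the most abundant member of each group without a call. Of each other list, up to 4 called genes of smallest p per stage are named. Other genes named were chosen after their values were seen. As alternatives, the pseudocount was set to 0.1 or 1, the filter was dropped or raised to 1 RPKM, the libraries were rescaled in 2 ways, and the erythroid level, the epicardial level or a replicate block was added. Limma voom was run on the recovered reads, and each library was left out in turn. The peak window was widened to 5 kb, the peaks were cut by score, and a larger overlap was asked for.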

Additional observations from a re-analysis of the deposited data

Results flagged for a closer look

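In E9.5 groups of 5 libraries, 3 of 48 groups held a library far from the others by Dixon's criterion, and chance alone gives about 1 in 20. Anln was lowest in flox 3, at 24.8 RPKM, where the nearest flox library had 26.9. Cdkn1b was highest in null 4, at 39.3 RPKM, where the nearest null library had 25.2. Rrm2 was lowest in null 4, at 61.0 RPKM, where the nearest null library had 84.5. In flox hearts of that stage Cdkn1b was likewise highest and Rrm2 lowest in flox 4.

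The null minus flox difference at E10.5 minus that at E9.5 passed a limma adjusted p under 0.05 for Ccne2 (-0.60), Rbl1 (-0.59), Rrm1 (-0.44) and Cdt1 (0.62). That fit took a common variance for both stages.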

How the results depend on the processing

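The number of the 48 genes called at E9.5 was 8. It was 0 with the erythroid level in the fit, where the log2 difference of Cdc25b turned to -0.0796, and 5 with the epicardial level (Ccna2, E2f2, Mki67, Top2a and Tpx2). With no filter on low values it was 6, with Tpx2 and without Ccnd2, Cdk4 and Cdc25b. It ran from 4 (without null 5, flox 1, flox 2 or flox 5) to 9 without 1 library. E2f2, Mki67 and Top2a were called in every alternative run other than the erythroid term. The count for the stage difference was 4, and became 7 with the erythroid and 2 with the epicardial level in the fit. It was 0 without E9.5 null 1, flox 1 and flox 3, a choice made after the data were seen. It ran from 0 to 8 without 1 library. The 8 were called without E10.5 null 2, where 13% of all genes were, against 3.82% in the main fit. At E10.5 the number of the 48 genes called was 0 in every alternative run. The paralog ratios had 0 calls in any run too, but so few libraries left no way for an E10.5 ratio to pass. Without 1 library, the log2 difference of Chd4 at E9.5 ran from -1.03 to -0.968, and that at E10.5 from -0.644 to -0.426. A shared peak near a start was found for 32 of the 39 genes (82.1%) in the main setting, against 59.9% of tested genes. Within 5 kb it was 32, against 65.2%, and with the larger overlap 32, against 57.6%. In the upper part by score it was 22 (56.4%), against 45.6%.

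Whether replicate numbers pair the samples is not given by the labels, and same-numbered null and flox libraries deviated together in some pairs only (E9.5 correlations of -0.136 to 0.519, E10.5 correlations of -0.0299 to 0.106). With a replicate block 10 genes were called at E9.5, of which 7 were among the 8, 0 at E10.5 and 4 in the stage difference. The 12 calls among the other cell cycle genes at E9.5 became 21. Calls over all genes rose as well, from 17.2% to 27.1% at E9.5 and from 3.82% to 9.92% in the stage difference. At E10.5 they went from 2.07% to 1.91%. The cause of these changes was not tested. Among values of single genes, ratios and lists under all alternatives, 3247 were counted as unchanged, 91 lost a call and 26 gained one. Unchanged means the same side of the threshold, or for counts a move within 1.5 times. Values that passed in neither fit were counted as unchanged even where their direction turned. Of the other lists 23 counts moved by over 1.5 times, and 1 called value, Cdc25b at E9.5, reversed. The counts of the 48 moved by over 1.5 times in 7 settings at E9.5 and in 14 for the stage difference. The fewest reads of any member were those of Cdkn2c, 41 to 131 per E9.5 library, and the part of counting error in its spread was not tested. With 3 against 3 libraries an exact test cannot go below 0.1.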
